A study of Mus musculus with 8 samples.

Results

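The collagen, laminin and matrix genes described here are 47 mouse genes for proteins of the extracellular matrix and for enzymes and inhibitors that remodel it. They were listed by symbol and found on the arrays through the RefSeq accession of each probe. The list holds 20 genes of the basement membrane, 19 of the fibrillar and interstitial matrix and 8 of matrix remodelling, among 20660 genes named on the arrays. A probe was matched for 46 of the 47, and none was matched for Col12a1. Of these, 36 passed the filter on dim probes (well above background on at least 2 of 8 arrays) and were tested with 14025 genes in all: 18 of the basement membrane, 13 of the fibrillar and interstitial matrix and 5 of remodelling. The 10 others stayed untested: Lama4, Col5a2, Col6a2, Fbln1, Fbn1 and Tnc were well above background on no array, and Lama1, Lox, Loxl1 and Mmp7 on 1 array only.

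The RNA came from BMEL cells, a line of bipotential progenitor cells from embryonic mouse liver that can take on hepatocyte or bile duct features. The cells were kept in 1 of 3 media, labelled DIFF (2 arrays), CM (3 arrays) and NoRX (3 arrays). The series title speaks of a response to conditioned media from human amniotic epithelium. The composition of each medium and the time of exposure are not given in the sources used here, all groups are 1 cell line, and no other treatment is named. Both DIFF samples carry the number 1 in one label and the numbers 1 and 2 in another, and nothing says that replicates were separate cultures. The p-values therefore measure the spread between these arrays, which may be technical.

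Basement membranes are thin sheets on which epithelial cells rest. Laminins, each a trimer of an alpha, a beta and a gamma chain, and networks of type IV collagen form their frame, and nidogens and the proteoglycan perlecan link these layers. The interstitial matrix holds fibril-forming collagens, beaded type VI collagen, fibronectin and elastic fibres. In the liver, bile ducts lie on a basement membrane, hepatocytes border a sparse matrix rich in fibronectin, and stellate cells and fibroblasts are the main makers of fibrillar collagen in scars. Lysyl oxidases cross-link collagen and elastin, matrix metalloproteinases cut matrix proteins, and TIMPs inhibit these proteinases.

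Levels are given as log2 of the processed spot signal relative to the 75th percentile of its array, so that 0 is the level at that percentile and 1 unit is a factor of 2. Levels of different probes are not compared with each other. The share of spots well above background was 46.4% on DIFF replicate 2 and 50.8% to 53.5% on the 7 remaining arrays. The local background was uneven at 1159 spots of DIFF replicate 2 and at 3 to 90 spots of the rest. The correlation between arrays of a group was 0.9603 for DIFF, 0.9909 to 0.9929 for CM and 0.9935 to 0.9943 for NoRX. The median SD of the tested genes was 0.194 log2 units in DIFF and 0.064 in both CM and NoRX. The test pools the spread of all groups, so the standard errors and p-values of the DIFF comparisons may be too small. The array positions put CM replicate 1 and the NoRX arrays in slide row 1, and the DIFF arrays with CM replicates 2 and 3 in row 2. DIFF and NoRX thus never shared a row.

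Markers of the labelled cell type were present. Of 12 liver epithelial markers, 11 were well above background on all 8 arrays, among them Krt8, Krt18, Krt19, Cdh1 and Hnf4a. Of 14 stellate cell and fibroblast markers, the cells most often named as sources of interstitial matrix, Tagln and Des were well above background on all 8 arrays and 9 on none: Pdgfrb, Lrat, Reln, Thy1, Dpt, Lum, Postn, Ngfr and Hgf. The summed level of that list, on a linear scale with the 75th percentile as 1, was 3.35 to 4.85 in DIFF, 5.74 to 6.63 in CM and 5.67 to 6.45 in NoRX. Most of this sum was Tagln, with mean log2 levels of 1.89 in DIFF, 2.24 in CM and 2.45 in NoRX. It therefore says little about the rest of the list. Of its 5 tested genes, 2 were higher and none was lower in CM than in NoRX, and none was higher and 3 were lower in DIFF than in NoRX. The 2 that rose in CM were Pdgfra and Des. The others did not pass there, among them Tagln (-0.21, adjusted p = 0.222). Pdgfra, a growth factor receptor of mesenchymal cells, was higher in CM than in NoRX by 1.25 ± 0.17 (SE), with an adjusted p of 0.000116. Des, the intermediate filament gene of muscle and stellate cells, was higher in CM by 1.94 ± 0.14 (SE), with an adjusted p of 7.31e-07. In DIFF, Pdgfra was not well above background on any array. Des was also 5.80-fold lower in DIFF than in CM (adjusted p = 8.78e-08). The part of such cells in the matrix results was not tested, and in a bulk sample fewer cells of a type and less RNA per cell cannot be told apart. Of 10 endothelial markers, Kdr and Vwf were well above background on every array, and of 9 macrophage and leukocyte markers with a probe, Csf1r, Cd14, Itgam and Cd3e were. The summed level of the macrophage and leukocyte list was 11.7 to 14.2 in DIFF, 22.8 to 23.6 in CM and 18.5 to 20.2 in NoRX. That of the endothelial list was 8.48 to 9.98, 10.7 to 11.6 and 10.4 to 12.6 in the same order. Most of the endothelial sum was Kdr, with mean log2 levels of 3.08 in DIFF, 3.39 in CM and 3.41 in NoRX. Of the tested macrophage and leukocyte markers, 4 of 4 were lower in DIFF than in NoRX, and Csf1r and Cd14 were higher in CM than in NoRX. Of 6 tested endothelial markers, 1 was higher and 2 were lower in DIFF than in NoRX, and 1 was higher and 2 were lower in CM than in NoRX. Beside these marker counts, 14.0% of all genes were called higher and 28.1% lower in DIFF against NoRX. In CM against NoRX these shares were 26.9% and 25.3%.

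Against NoRX, 14 matrix genes rose and 12 fell in CM, 26 in all, where the test called 52.2% of all genes in either direction. The same test called 26.9% of all genes higher and 25.3% lower, beside 38.9% and 33.3% of the 36 matrix genes. In DIFF against NoRX, 5 matrix genes rose and 17 fell (13.9% and 47.2%), against 14.0% and 28.1% of all genes, or 42.1% in either direction. In DIFF against CM, 5 rose and 22 fell (13.9% and 61.1%), against 23.6% and 35.6% of all genes, or 59.2% in either direction. The median difference of the tested matrix genes was 0.18, -0.37 and -0.84 in these comparisons in that order, beside 0.01, -0.10 and -0.11 for all genes. These counts are descriptions of genes that passed the filter, since a gene well above background in 1 group alone had to differ. The comparisons with DIFF share its 2 arrays, and those with CM or NoRX share theirs. Within slide row 1, CM replicate 1 against NoRX gave 15 higher and 11 lower, in a fit where the spread comes from the NoRX arrays alone and the lone CM array is assumed to vary like them, and within row 2, DIFF against CM replicates 2 and 3 gave 5 higher and 18 lower. With slide row as a block, DIFF against NoRX gave 2 higher and 14 lower.

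**Figure D1:**
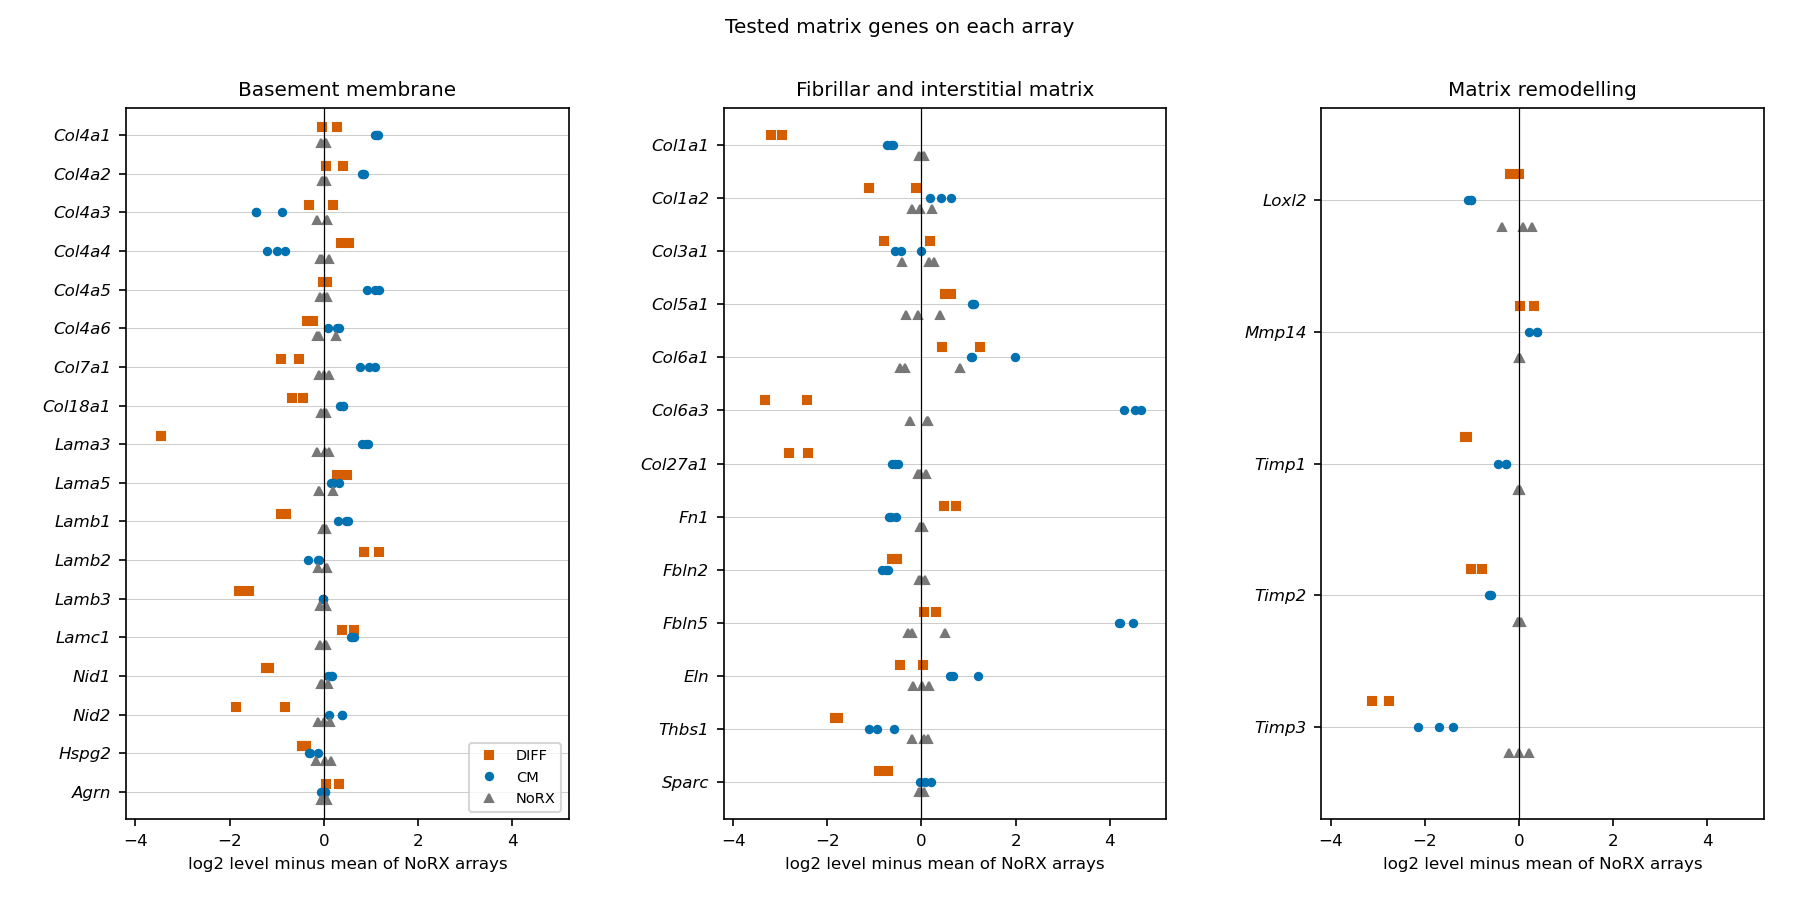
Each point is 1 array's log2 level of a gene minus the mean of the NoRX arrays (x axis, log2 units), for the 36 tested matrix genes by class; DIFF squares, CM circles and NoRX triangles. Col6a3 and Fbln5 lie more than 4 units to the right in CM, and Lama3, Col1a1, Col6a3, Col27a1 and Timp3 lie more than 2 units to the left in DIFF.

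By class, the basement membrane had 8 genes higher and 3 lower of 18 in CM against NoRX, 4 higher and 8 lower in DIFF against NoRX, and 3 higher and 11 lower in DIFF against CM. The fibrillar and interstitial class had 5 higher and 5 lower of 13 in CM against NoRX, 1 higher and 6 lower in DIFF against NoRX, and 1 higher and 8 lower in DIFF against CM. Of 5 remodelling genes, 1 was higher and 4 were lower in CM against NoRX, none was higher and 3 were lower in DIFF against NoRX, and 1 was higher and 3 were lower in DIFF against CM. The shares of all genes given above (26.9% and 25.3%, 14.0% and 28.1%, 23.6% and 35.6%, higher and lower) are the background of these counts. The 4 basement membrane genes higher in DIFF against NoRX became 2 without DIFF replicate 1 or NoRX replicate 2 and 7 without DIFF replicate 2. In the alternatives other than leaving out single arrays, they ranged from 1 to 6, and the 8 lower from 5 to 8. In the same alternatives, the fibrillar and interstitial class had 2 to 6 genes higher in CM against NoRX. It had 4 to 8 lower in DIFF against CM, and remodelling had 1 to 3 lower there. The class medians for CM against NoRX were 0.26 for the basement membrane, 0.08 for the fibrillar and interstitial matrix and -0.62 for remodelling. For DIFF against CM they were -0.77, -0.93 and -0.27 in the same order. Whether the classes differ from each other was not tested.

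Type IV collagen is made of chains from 6 genes that lie in 3 head-to-head pairs. In the RefSeq annotation of assembly GRCm38.p6, the gene bounds of Col4a1 and Col4a2 overlap by 85 bases on chromosome 8, those of Col4a3 and Col4a4 overlap by 114 bases on chromosome 1, and those of Col4a5 and Col4a6 lie 1274 bases apart on chromosome X. Col4a1 and Col4a2 encode the chains found in nearly all basement membranes. Col4a3, Col4a4 and Col4a5 encode the chains of the network known from the kidney glomerulus and the lung, and Col4a5 and Col4a6 those of a network known from skin and smooth muscle. In these cells Col4a1, Col4a2 and Col4a5 rose in CM while Col4a3 and Col4a4 fell, and in DIFF 5 of the 6 did not pass the test against NoRX.

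Col4a5 passed the test in CM against NoRX and Col4a6 did not. The windows upstream of Col4a5 and Col4a6 are shown because both genes start in the same stretch of the X chromosome. Each gives the 250 bases before the outermost start that the RefSeq promoter table lists for the gene (GRCm38.p6), which can differ from the gene bounds above, 5′ to 3′ on the strand of the gene, with a CCAAT box or a GC box (GGGCGG), on either strand, in capitals. The first is at chrX:141475169-141475418 on the plus strand and the second at chrX:141474077-141474326 on the minus strand.
Col4a5: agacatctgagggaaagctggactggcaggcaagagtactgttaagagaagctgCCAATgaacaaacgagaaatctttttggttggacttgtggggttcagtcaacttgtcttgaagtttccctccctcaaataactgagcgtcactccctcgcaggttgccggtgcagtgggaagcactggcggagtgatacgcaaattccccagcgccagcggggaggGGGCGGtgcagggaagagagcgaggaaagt
Col4a6: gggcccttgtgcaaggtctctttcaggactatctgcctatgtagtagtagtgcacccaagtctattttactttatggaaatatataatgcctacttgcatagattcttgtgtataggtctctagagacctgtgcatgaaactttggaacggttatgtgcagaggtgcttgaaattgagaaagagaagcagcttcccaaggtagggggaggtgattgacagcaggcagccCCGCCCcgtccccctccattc
The Col4a5 window holds a CCAAT box that begins 196 bases before the start and a GC box that begins 30 bases before it, with 54.0% G and C and 10 CpG dinucleotides. The Col4a6 window holds a GC box 21 bases before the start, with 47.6% G and C and 3 CpG dinucleotides. Over 27025 promoters in the RefSeq table, the median was 52.0% G and C and 6 CpG dinucleotides in this window.

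Col4a1 had log2 levels of 2.31 and 2.00 in DIFF, 3.13, 3.20 and 3.17 in CM, and 1.98, 2.06 and 2.08 in NoRX. Each CM array lay above every other array, and the DIFF and NoRX ranges overlapped. The difference of CM from NoRX was 1.13 ± 0.08 (SE), a 2.19-fold rise with an adjusted p of 1.15e-06, and that of DIFF from CM was -1.01 ± 0.09 (SE, adjusted p = 3.22e-06). Its partner Col4a2 was at 2.49 and 2.12 in DIFF, 2.92, 2.88 and 2.90 in CM, and 2.03, 2.06 and 2.13 in NoRX. It rose 1.78-fold in CM (0.83 ± 0.09, SE, adjusted p = 1.82e-05) and was 1.51-fold lower in DIFF than in CM (adjusted p = 0.000349). Without DIFF replicate 2, Col4a1 and Col4a2 also exceeded NoRX, by 0.27 (adjusted p = 0.00317) and 0.42 (adjusted p = 0.000194).

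The second pair ran the other way. Col4a3 was at -2.32 and -2.83 in DIFF, -3.95, -3.94 and -3.39 in CM, and -2.65, -2.44 and -2.43 in NoRX, so that the CM arrays were the lowest. It fell by 1.26 ± 0.20 (SE) in CM against NoRX, a 2.39-fold difference with an adjusted p of 0.000368. Col4a4 was at -0.65 and -0.82 in DIFF, -2.19, -2.39 and -2.01 in CM, and -1.22, -1.26 and -1.08 in NoRX, again lowest in CM, and here highest in DIFF. It fell by 1.01 ± 0.12 (SE) in CM against NoRX (adjusted p = 3.71e-05) and was 2.75-fold higher in DIFF than in CM (1.46 ± 0.13, SE, adjusted p = 2.91e-06). A second Col4a4 probe, well above background on all 8 arrays, differed by -0.20 between CM and NoRX, by -0.39 between DIFF and NoRX and by -0.19 between DIFF and CM, so that the Col4a4 results hold for 1 of these 2 probes and both DIFF differences have the opposite sign on the other. The rise of Col4a4 in DIFF against NoRX (0.45, adjusted p = 0.0187) lost the threshold in 7 of 21 alternatives, among them the fit without DIFF replicate 1.

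In the third pair, Col4a5 passed the test in CM against NoRX and Col4a6 did not, with differences of the same sign. Whether these genes differ from each other was not tested. Col4a5 had levels of -0.82 and -0.92 in DIFF, 0.20, 0.02 and 0.27 in CM, and -0.90, -0.97 and -0.82 in NoRX, with the CM arrays on top and the rest together. It rose 2.09-fold in CM against NoRX (1.06 ± 0.09, SE, adjusted p = 3.54e-06) and was 2.05-fold lower in DIFF than in CM (adjusted p = 5.88e-06). Col4a6 had -2.92 and -3.04 in DIFF, -2.41, -2.36 and -2.60 in CM, and -2.79, -2.82 and -2.43 in NoRX. Its CM and NoRX ranges overlapped, and the difference of 0.23 (95% confidence interval -0.11 to 0.57) had an adjusted p of 0.25. Its lower level in DIFF than in CM (-0.53, adjusted p = 0.0212) lost the threshold in 11 of 22 alternatives, among them without DIFF replicate 2 (adjusted p = 0.0592).

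**Figure D2:**
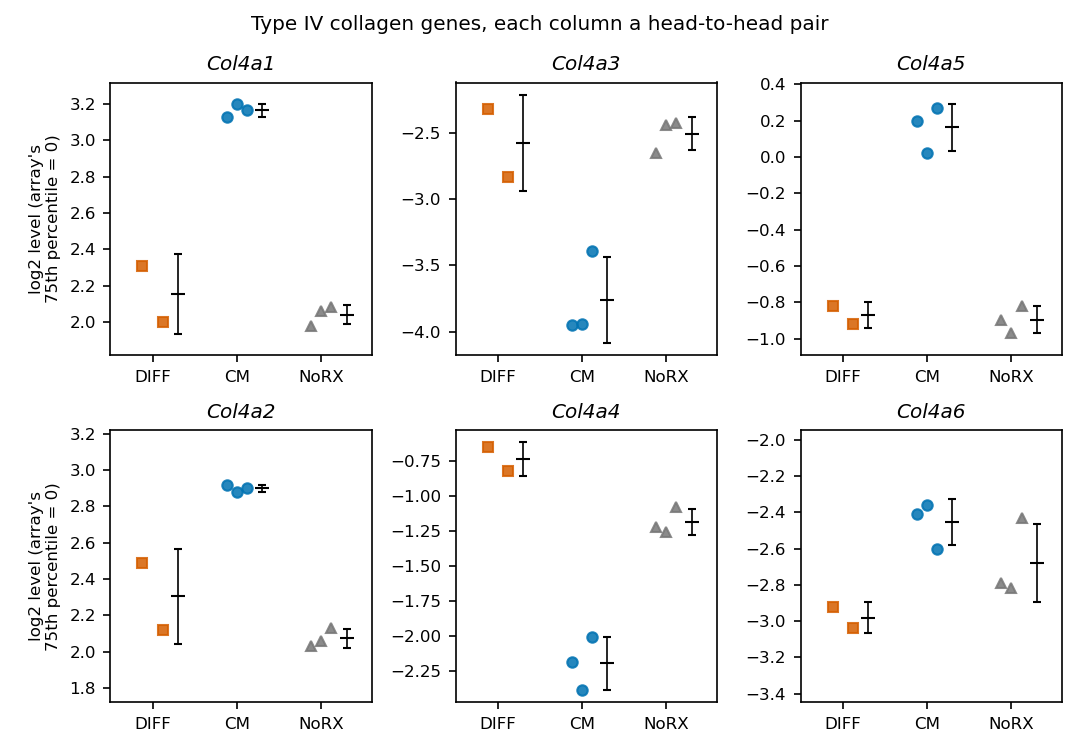
Log2 level of the 6 type IV collagen genes (y axis, 0 is the 75th percentile of the array) on each DIFF, CM and NoRX array, with the mean ± SD beside the points; each column is a head-to-head pair and each panel has its own y range. Col4a1, Col4a2 and Col4a5 are highest in CM, Col4a3 and Col4a4 lowest in CM, and the CM and NoRX points of Col4a6 overlap.

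Other collagens of epithelial basement membranes followed the first pair in CM and went below NoRX in DIFF. Col7a1, the gene of the anchoring fibrils that fix skin epithelium to the dermis, was at 0.01 and -0.37 in DIFF, 1.61, 1.50 and 1.31 in CM, and 0.43, 0.64 and 0.53 in NoRX. The groups did not overlap. It rose by 0.94 ± 0.11 (SE) in CM against NoRX (adjusted p = 4.02e-05) and fell by 0.72 ± 0.13 (SE) in DIFF against NoRX (adjusted p = 0.000834). The call in DIFF was lost with slide row as a block and with array weights. Col18a1, the gene of a collagen that carries heparan sulfate and releases endostatin, was at 5.69 and 5.47 in DIFF, 6.55, 6.47 and 6.54 in CM, and 6.15, 6.18 and 6.08 in NoRX. It rose 1.30-fold in CM (adjusted p = 0.00119) and fell 1.47-fold in DIFF (adjusted p = 0.000228), and a second Col18a1 probe moved the same way by 0.25 and -0.43.

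Among the laminins, the alpha 3 and beta 3 chains, known from the laminin of epithelial adhesion sites, were both lower in DIFF. Lama3, the alpha 3 chain gene, had a level of -0.29 on DIFF replicate 1, against 3.98, 4.06 and 4.10 in CM and 3.28, 3.19 and 3.03 in NoRX. Its spot on DIFF replicate 2 was marked as uneven and left out, so the DIFF value is 1 array. The level was 20.2-fold lower in DIFF than in CM (-4.33) and lower than in NoRX (-3.46). Both differences passed the test, but its spread came from the CM and NoRX arrays alone, since 1 DIFF value has no spread. A second Lama3 probe, measured on all 8 arrays, gave -0.37 and -0.62 in DIFF, 3.43, 3.53 and 3.45 in CM, and 2.47, 2.49 and 2.41 in NoRX. There both DIFF arrays lay far below the rest, with differences of -3.97 from CM and -2.95 from NoRX. In CM, Lama3 rose by 0.88 ± 0.08 (SE) against NoRX (adjusted p = 1.08e-05).

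Lamb3, the beta 3 chain gene, was at 5.30 and 5.08 in DIFF, 6.87 on each CM array, and 6.93, 6.92 and 6.80 in NoRX. DIFF was 3.21-fold below CM (-1.68 ± 0.08, SE, adjusted p = 1.85e-08) and 3.23-fold below NoRX (adjusted p = 3.00e-08), while CM and NoRX overlapped, with a difference of -0.01 (95% confidence interval -0.17 to 0.15). In CM the chain genes thus differed, since Lama3 rose and Lamb3 did not pass the test.

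The chains of the laminins found in most adult basement membranes (alpha 5, beta 1 or beta 2, gamma 1) included beta chains that moved in opposite directions in DIFF. Lamb1 was at 3.00 and 2.88 in DIFF, 4.30, 4.09 and 4.26 in CM, and 3.78, 3.77 and 3.83 in NoRX, with DIFF lowest and CM highest. It fell 1.80-fold in DIFF against NoRX (-0.85 ± 0.08, SE, adjusted p = 7.97e-06) and rose 1.34-fold in CM (adjusted p = 0.000553). Lamb2 was at 2.30 and 1.99 in DIFF, 1.02, 0.79 and 1.03 in CM, and 1.19, 1.01 and 1.20 in NoRX, so that both DIFF arrays lay above all others. It rose 2.01-fold in DIFF against NoRX (1.01 ± 0.11, SE, adjusted p = 3.04e-05) and was 2.29-fold higher in DIFF than in CM (adjusted p = 4.17e-06), while CM and NoRX differed by -0.19 (adjusted p = 0.143). Lamc1, the gamma 1 chain gene, was at 4.39 and 4.14 in DIFF, 4.34, 4.33 and 4.39 in CM, and 3.78, 3.67 and 3.80 in NoRX. It was higher in DIFF (0.52, adjusted p = 0.000621) and in CM (0.60, adjusted p = 7.23e-05) than in NoRX; the call for DIFF was lost with slide row as a block. Lama5, the alpha 5 chain gene, ranged from 6.10 to 6.31 in DIFF, 5.98 to 6.13 in CM and 5.71 to 6.02 in NoRX. Its rise in DIFF against NoRX (0.39, adjusted p = 0.0133) lost the threshold in 6 of 21 alternatives, among them the fit without DIFF replicate 1.

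**Figure D3:**
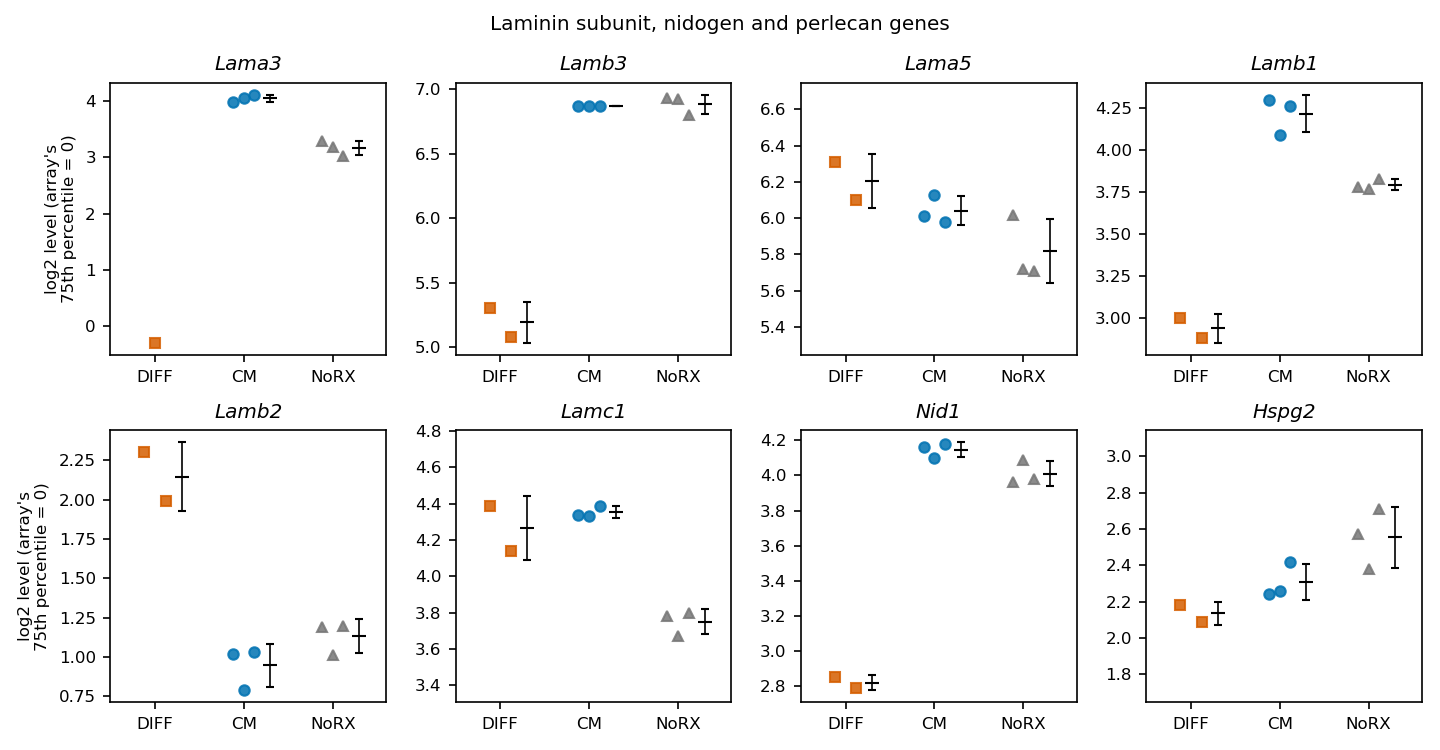
Log2 level of laminin chain genes, Nid1 and Hspg2 (y axis, 0 is the 75th percentile of the array) on each DIFF, CM and NoRX array, with the mean ± SD where a group has more than 1 value; each panel has its own y range. The DIFF points lie lowest for Lama3, Lamb3, Lamb1, Nid1 and Hspg2 and highest for Lamb2.

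Of the linkers of the basement membrane, Nid1, Nid2 and Hspg2 were lower in DIFF than in NoRX. Nid1, the gene of nidogen 1, which ties laminin to type IV collagen, was at 2.85 and 2.79 in DIFF, 4.16, 4.10 and 4.18 in CM, and 3.96, 4.09 and 3.98 in NoRX. It was 2.29-fold lower in DIFF than in NoRX (-1.19 ± 0.07, SE, adjusted p = 1.94e-07) and 2.52-fold lower than in CM (adjusted p = 4.72e-08), and 2 further probes of Nid1 were also lower in DIFF, with differences of -1.12 and -1.77 from NoRX. Nid2, its relative, was dim, and 1 of the 2 DIFF arrays was well above background. Its levels were -4.99 and -6.03 in DIFF, -4.04, -3.77 and -3.77 in CM, and -4.03, -4.28 and -4.16 in NoRX. DIFF was lower than both (-1.65 against CM, adjusted p = 0.00148, and -1.35 against NoRX, adjusted p = 0.00777), and another background correction, normexp, turned both signs (0.07 and 0.10). Hspg2, the perlecan gene, ranged from 2.09 to 2.18 in DIFF, 2.24 to 2.42 in CM and 2.38 to 2.71 in NoRX, and fell by 0.42 in DIFF against NoRX (adjusted p = 0.00686), a call lost in 3 of 21 alternatives. Its difference in CM (-0.25, adjusted p = 0.0412) lost the threshold in 10 of 22 alternatives. Agrn, the gene of the proteoglycan agrin, ranged from 5.86 to 6.24 over all arrays and passed the test in no comparison; the difference of DIFF from CM was 0.18 (95% confidence interval -0.02 to 0.38). Without DIFF replicate 2, Agrn was higher in DIFF than in CM (0.32, adjusted p = 0.000792) and than in NoRX (0.33, adjusted p = 0.00113).

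In the interstitial matrix, Col6a3 and Fbln5 had the largest rises in CM among the tested matrix genes, at 22.6-fold and 19.7-fold against NoRX. Col6a3 encodes the alpha 3 chain of type VI collagen, whose cleaved end is known as endotrophin, and Fbln5 encodes fibulin 5, a calcium-binding protein that brings elastin onto elastic fibres. Their upstream windows are shown because the genes moved together in CM. Each is the 250 bases before the outermost start in the same RefSeq table, 5′ to 3′ on the strand of the gene, with a CCAAT box or GC box in capitals. The Col6a3 window is chr1:90843972-90844221 and the Fbln5 window chr12:101819120-101819369, both on the minus strand of GRCm38.p6.
Col6a3: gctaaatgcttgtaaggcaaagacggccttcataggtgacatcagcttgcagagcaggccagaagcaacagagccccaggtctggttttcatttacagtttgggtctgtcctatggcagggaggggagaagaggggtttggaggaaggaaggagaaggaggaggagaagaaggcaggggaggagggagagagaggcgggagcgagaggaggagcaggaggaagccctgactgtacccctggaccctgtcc
Fbln5: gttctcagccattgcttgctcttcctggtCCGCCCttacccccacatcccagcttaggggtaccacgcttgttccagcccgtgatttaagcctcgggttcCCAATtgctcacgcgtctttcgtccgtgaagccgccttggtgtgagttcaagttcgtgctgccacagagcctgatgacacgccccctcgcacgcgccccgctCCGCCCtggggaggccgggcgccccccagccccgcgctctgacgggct
The Fbln5 window holds a CCAAT box 150 bases and GC boxes 221 and 48 bases before the start, with 65.2% G and C and 21 CpG dinucleotides. The Col6a3 window holds neither motif and has 57.2% G and C and 3 CpG dinucleotides.

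In all, 5 motifs were searched on both strands in the same window of all 27025 promoters and of the 32 matrix genes with an entry. The GC box (GGGCGG) was held by 33.0% of all promoters and by 22 of the 32 matrix genes (68.8%), and the CCAAT box (CCAAT) by 34.5% and 13 (40.6%). The TATA box (TATAAA) was held by 13.0% and 3 matrix genes, an AP-1 site (TGANTCA) by 6.85% and 2, and a TEAD site (GGAATG) by 12.6% and 3. No motif overlapped another in the windows printed above.

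Col6a3 was at -7.53 and -6.65 in DIFF, 0.08, 0.45 and 0.33 in CM, and -4.46, -4.08 and -4.10 in NoRX. The groups lay far apart, and neither DIFF array was well above background. It rose 22.6-fold in CM against NoRX (4.50 ± 0.24, SE, adjusted p = 9.55e-08). Where no array of a group is well above background, the fold is given as a bound: the mean of the brighter group against the mean of, per array, the gene's own level or the lowest level well above background, whichever is higher. By that bound Col6a3 was at least 36.4-fold lower in DIFF than in CM (adjusted p = 1.41e-09) and at least 1.61-fold lower than in NoRX (adjusted p = 5.47e-06). Here and below, the adjusted p beside a bound tests the difference of the measured levels, not the bound. Each bound holds for the main background correction only. With normexp, another background correction, the log2 differences of DIFF were -3.31 from CM (adjusted p = 2.76e-07) and -0.20 from NoRX (adjusted p = 0.568). Both fell short of the bounds, and the rise in CM was 3.12.

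Fbln5 was at -4.13 and -4.38 in DIFF, -0.23, 0.06 and -0.24 in CM, and -4.73, -3.95 and -4.64 in NoRX. The CM arrays stood apart from all others, whose ranges overlapped. It rose 19.7-fold in CM against NoRX (4.30 ± 0.21, SE, adjusted p = 5.73e-08) and was 17.3-fold lower in DIFF than in CM (-4.11 ± 0.24, SE, adjusted p = 6.41e-08), and DIFF replicate 1 was well above background there but DIFF replicate 2 was not. A second Fbln5 probe was well above background on no array, so that the result rests on 1 probe, and the mean over both probes gave a rise of 1.99. With normexp the rise was 2.72 and the difference of DIFF from CM was -2.35.

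The other type VI collagen chains differed in how far they were measured. Col6a1 was at -2.07 and -2.87 in DIFF, -1.34, -2.25 and -2.26 in CM, and -3.78, -3.67 and -2.50 in NoRX. It rose 2.59-fold in CM against NoRX (1.37 ± 0.36, SE, adjusted p = 0.00789), and its DIFF range overlapped both others. The rise was 0.72 with normexp and 1.98 with slide row as a block. Col6a2 was well above background on no array.

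Col1a1, Col1a2, Col3a1 and Col5a1, genes of fibril-forming collagens, were dim. Col1a1, the alpha 1 chain gene of type I collagen, was at -5.39 and -5.63 in DIFF, -3.07, -3.15 and -3.03 in CM, and -2.38, -2.48 and -2.42 in NoRX, in 3 groups that did not overlap. It fell 1.58-fold in CM against NoRX (-0.66 ± 0.17, SE, adjusted p = 0.00664). In DIFF it was not well above background, with a level at least 5.55-fold below NoRX (adjusted p = 1.86e-07) and at least 3.51-fold below CM (adjusted p = 7.96e-07). With normexp the differences of DIFF were -0.92 from NoRX (adjusted p = 0.00671) and -0.41 from CM (adjusted p = 0.139), below these bounds, and that of CM from NoRX lost the threshold (adjusted p = 0.0586). The call in CM against NoRX was lost with slide row as a block too. Col1a2, the partner chain, was at -4.60 and -5.60 in DIFF, -4.31, -4.07 and -3.86 in CM, and -4.26, -4.69 and -4.52 in NoRX. It differed by -1.03 between DIFF and CM (adjusted p = 0.0278), which without DIFF replicate 2 was -0.53 (adjusted p = 0.186) and with normexp turned sign (0.28). Col3a1, the gene of type III collagen, lay between -5.39 and -4.33 over all arrays and passed the test in no comparison.

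Col5a1, a chain gene of the collagen that starts fibrils, was at -3.71 and -3.83 in DIFF, -3.24, -3.22 and -3.26 in CM, and -4.65, -4.41 and -3.93 in NoRX. It rose 2.13-fold in CM against NoRX (1.09 ± 0.22, SE, adjusted p = 0.00186), and this was 0.41 (adjusted p = 0.115) with normexp. Col27a1, a fibrillar collagen gene known from cartilage, was at -3.38 and -3.79 in DIFF, -1.47, -1.53 and -1.59 in CM, and -0.87, -1.0 and -1.04 in NoRX. It was 6.12-fold lower in DIFF than in NoRX (-2.61 ± 0.14, SE, adjusted p = 6.96e-08), 4.14-fold lower in DIFF than in CM (adjusted p = 2.99e-07) and 1.48-fold lower in CM than in NoRX (adjusted p = 0.00318). The last of these was lost with slide row as a block. With normexp the differences of DIFF were -1.45 from NoRX (adjusted p = 5.94e-06) and -0.96 from CM (adjusted p = 0.00011).

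Among the glycoproteins, Fn1, the fibronectin gene, was the 1 gene of 13 in the fibrillar and interstitial class called higher in DIFF than in NoRX, and also the 1 called higher in DIFF than in CM. Without NoRX replicate 3, Col5a1 and Col6a1 were called higher in DIFF than in NoRX too, and without DIFF replicate 2, Fbln2 was higher in DIFF than in CM (0.24, adjusted p = 0.00753). Quantile normalization also gave Col5a1 and median centring Col6a1 as higher in DIFF than in NoRX, and both scalings gave Fbln2 as higher in DIFF than in CM. Fn1 was at 7.13 and 6.87 in DIFF, 5.74, 5.70 and 5.85 in CM, and 6.39, 6.35 and 6.43 in NoRX, in 3 groups without overlap. It was 1.53-fold higher in DIFF than in NoRX (0.61 ± 0.09, SE, adjusted p = 2.00e-04), 2.36-fold higher in DIFF than in CM (1.24 ± 0.09, SE, adjusted p = 3.91e-07) and 1.54-fold lower in CM than in NoRX (adjusted p = 5.97e-05). Fbln2, the gene of fibulin 2, which binds fibronectin and basement membrane proteins, was at 4.90 and 4.79 in DIFF, 4.72, 4.59 and 4.67 in CM, and 5.37, 5.40 and 5.49 in NoRX. It fell in DIFF (-0.57, adjusted p = 0.000109) and in CM (-0.76, adjusted p = 5.00e-06) against NoRX. Fbln5 and Fbln2 thus moved in opposite directions in CM.

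Thbs1 and Sparc encode matricellular proteins, which signal to cells more than they build the matrix. Thbs1, the gene of thrombospondin 1, an activator of latent TGF-beta, was at -1.78 and -1.73 in DIFF, -0.89, -1.06 and -0.53 in CM, and -0.15, 0.18 and 0.11 in NoRX. It was 3.49-fold lower in DIFF than in NoRX (-1.80 ± 0.15, SE, adjusted p = 2.59e-06) and 1.83-fold lower in CM (adjusted p = 0.000273). Sparc, the gene of a collagen-binding protein also called osteonectin, was at 6.73 and 6.55 in DIFF, 7.65, 7.42 and 7.51 in CM, and 7.40, 7.43 and 7.50 in NoRX. It was 1.75-fold lower in DIFF than in NoRX (adjusted p = 2.29e-05), while CM and NoRX overlapped, with a difference of 0.08 (95% confidence interval -0.09 to 0.26). A second Sparc probe differed by 0.26 in CM and by -0.98 in DIFF against NoRX. Eln, the elastin gene, was well above background on 1 DIFF array, on all CM arrays and on no NoRX array, and was at least 1.71-fold higher in CM than in NoRX (adjusted p = 0.0473), a call lost in 9 of 21 alternatives.

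**Figure D4:**
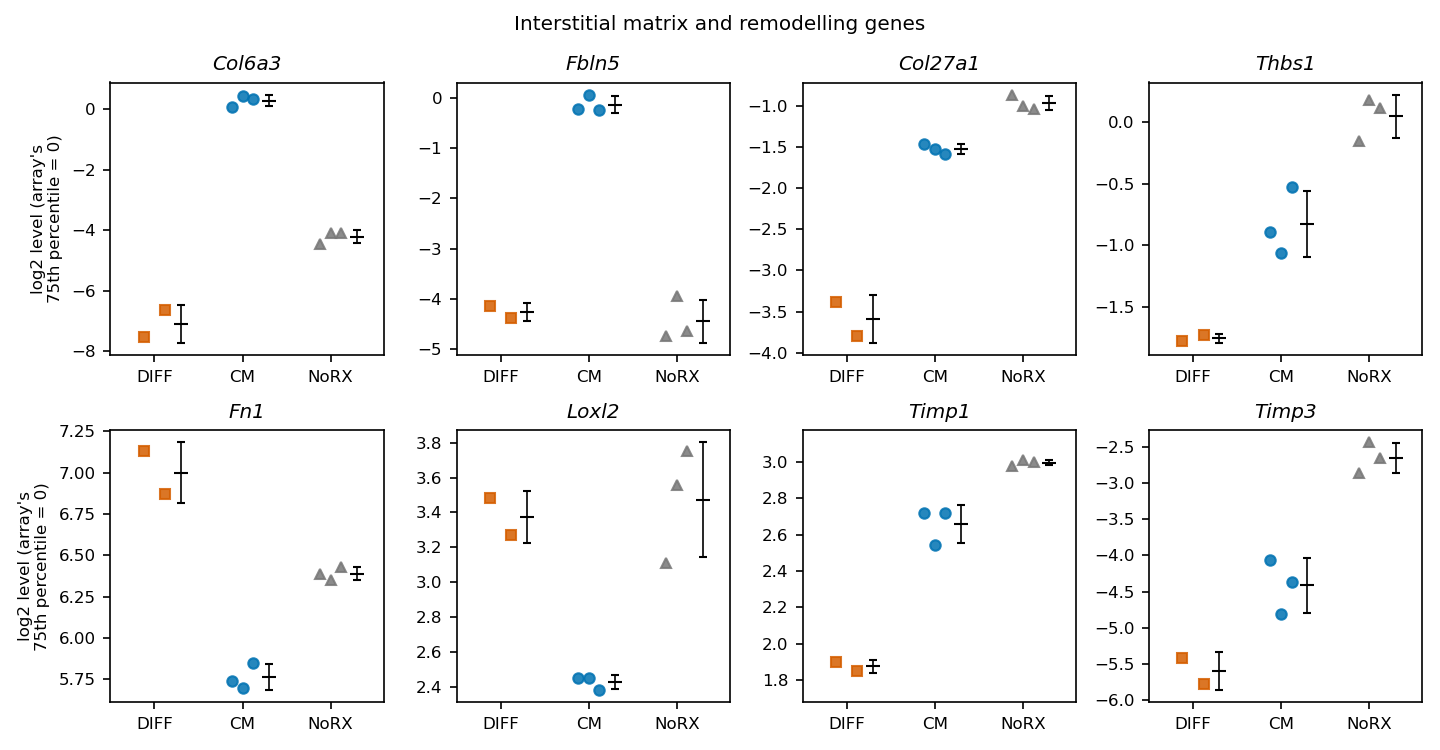
Log2 level of 8 interstitial matrix and remodelling genes (y axis, 0 is the 75th percentile of the array) on each DIFF, CM and NoRX array, with the mean ± SD beside the points; each panel has its own y range. Col6a3 and Fbln5 stand apart in CM, Fn1 is highest in DIFF, and Col27a1, Thbs1, Timp1 and Timp3 are lowest in DIFF.

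Of the remodelling genes, the inhibitors Timp1 and Timp3 were lower in both media than in NoRX, and Timp2 was lower in DIFF while its probes disagreed in CM. Timp1 was at 1.90 and 1.85 in DIFF, 2.72, 2.54 and 2.72 in CM, and 2.98, 3.01 and 3.00 in NoRX, in 3 groups without overlap. It fell 2.18-fold in DIFF against NoRX (-1.13 ± 0.08, SE, adjusted p = 5.58e-07) and 1.26-fold in CM (adjusted p = 0.00195), and the call in CM was lost with slide row as a block. Timp3, the inhibitor that stays bound to the matrix, was at -5.41 and -5.78 in DIFF, -4.06, -4.81 and -4.36 in CM, and -2.86, -2.44 and -2.66 in NoRX. It fell 3.38-fold in CM against NoRX (-1.76 ± 0.26, SE, adjusted p = 0.000197), and with normexp the difference was -0.93 (adjusted p = 0.00676). In DIFF it was not well above background and was at least 4.74-fold lower than in NoRX (adjusted p = 1.03e-05) and at least 1.40-fold lower than in CM (adjusted p = 0.00469). With normexp, the difference of DIFF from NoRX was -0.71 (adjusted p = 0.0549) and that from CM was 0.22, so that neither reached its bound.

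Timp2 had 2 probes. On the brighter probe it was at 6.33 and 6.10 in DIFF, 6.49, 6.47 and 6.51 in CM, and 7.09, 7.16 and 7.10 in NoRX, with differences from NoRX of -0.90 in DIFF (adjusted p = 4.16e-06) and -0.62 in CM (adjusted p = 2.93e-05). On the other probe these differences were -0.79 in DIFF and 0.23 in CM, and the mean over both probes gave -0.19 in CM (adjusted p = 0.0578). The fall in DIFF was therefore seen on both probes and the fall in CM on 1.

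The enzymes moved less uniformly. Loxl2, the gene of a lysyl oxidase that cross-links type IV and fibrillar collagen, was at 3.48 and 3.27 in DIFF, 2.45, 2.45 and 2.38 in CM, and 3.11, 3.56 and 3.75 in NoRX. The CM arrays were the lowest and the others overlapped. It fell 2.07-fold in CM against NoRX (-1.05 ± 0.14, SE, adjusted p = 7.14e-05) and was 1.94-fold higher in DIFF than in CM (adjusted p = 0.000232), and 2 further Loxl2 probes each differed by -0.73 in CM. Mmp14, the gene of the membrane-bound proteinase that activates proMMP2 together with TIMP2, ranged from -0.74 to -0.44 in DIFF, -0.54 to -0.37 in CM and -0.76 to -0.74 in NoRX. It rose 1.25-fold in CM against NoRX (adjusted p = 0.0177), a call lost in 5 of 22 alternatives. Without DIFF replicate 2 it was also higher in DIFF than in NoRX (0.31, adjusted p = 0.0158).

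**Figure D5:**
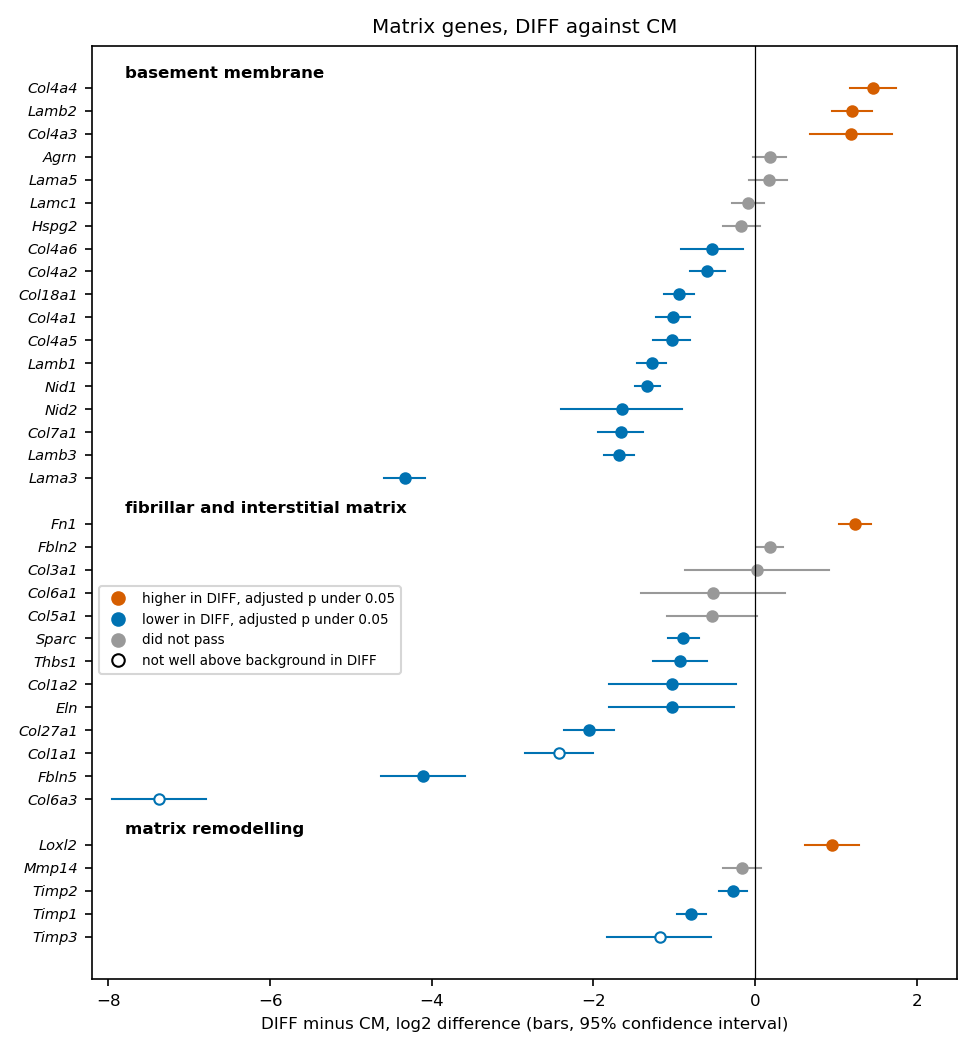
Log2 difference of DIFF from CM (x axis) for the 36 tested matrix genes by class, with 95% confidence intervals; open circles are genes not well above background in DIFF. Of the 36, 22 lie left of 0 and passed the test, from Timp2 at -0.27 to Col6a3 at -7.38, and 5 lie right of 0 and passed it: Col4a3, Col4a4, Lamb2, Fn1 and Loxl2.

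Genes that act before and after the matrix proteins were described from wider lists. Of 23 tested genes of collagen folding and processing, 9 were higher and 6 lower in CM against NoRX, 2 and 6 in DIFF against NoRX, and 5 and 9 in DIFF against CM. For this and the next lists, the test called 26.9% of all genes higher and 25.3% lower in CM against NoRX, 14.0% and 28.1% in DIFF against NoRX, and 23.6% and 35.6% in DIFF against CM. Pcolce, the gene of a protein that enhances the trimming of procollagen, was at 3.72 and 3.54 in DIFF, 1.26, 0.77 and 1.36 in CM, and 3.08, 3.01 and 3.19 in NoRX. It was 3.90-fold lower in CM than in NoRX (adjusted p = 5.78e-07) and 5.66-fold higher in DIFF than in CM (adjusted p = 8.43e-08). Its relative Pcolce2 had levels of -4.33 and -4.41 in DIFF, -1.01, -0.87 and -0.99 in CM, and -1.47, -1.65 and -1.52 in NoRX, the reverse order, and was 10.7-fold lower in DIFF than in CM (adjusted p = 1.57e-09), and a single DIFF array was well above background. P4ha1, the gene of a prolyl hydroxylase that stabilises the collagen helix, was 1.97-fold higher in CM than in NoRX (adjusted p = 2.68e-06) and 2.10-fold lower in DIFF than in CM (adjusted p = 1.51e-06).

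Of 21 tested matrix receptors, 9 were higher and 5 lower in CM against NoRX, none was higher and 16 were lower in DIFF against NoRX (14.0% and 28.1% of all genes), and 2 were higher and 17 lower in DIFF against CM (23.6% and 35.6% of all genes). Ddr2, a receptor for fibrillar collagen, was at -0.21 and -0.03 in DIFF, -3.00, -3.08 and -2.95 in CM, and -0.57, -0.40 and -0.26 in NoRX, and was 6.06-fold lower in CM than in NoRX (adjusted p = 2.28e-08). Itga7, the alpha chain of a laminin receptor known from muscle, was at 0.78 and 0.60 in DIFF, 4.48, 4.62 and 4.45 in CM, and 2.51, 2.66 and 2.42 in NoRX. It was 14.2-fold lower in DIFF than in CM (adjusted p = 8.78e-11) and 3.97-fold higher in CM than in NoRX (adjusted p = 2.55e-08). Itgb3, a chain of the vitronectin receptor, was at 1.28 and 1.15 in DIFF, 4.83, 4.87 and 4.84 in CM, and 4.25, 4.33 and 4.22 in NoRX, and was 8.32-fold lower in DIFF than in NoRX (adjusted p = 1.73e-10). Itga6, an alpha chain of receptors for laminins, was 2.99-fold lower in DIFF than in NoRX (adjusted p = 2.44e-08). Itgb4, which pairs with it in hemidesmosomes, was 2.49-fold lower in DIFF than in NoRX (adjusted p = 1.15e-07). In CM against NoRX, Itgb4 was 1.84-fold lower (adjusted p = 1.58e-06) and Itga6 was 1.13-fold higher (adjusted p = 0.0491).

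Of 15 tested proteases and inhibitors outside the 47, 3 were higher and 3 lower in CM against NoRX, none was higher and 9 were lower in DIFF against NoRX (14.0% and 28.1% of all genes), and 1 was higher and 8 lower in DIFF against CM. Plaur, the receptor of urokinase, fell 1.63-fold in CM (adjusted p = 2.33e-05) and 1.62-fold in DIFF (adjusted p = 6.36e-05) against NoRX. Of 28 other tested matrix proteins, 6 were higher and 8 lower in CM against NoRX, 2 and 13 in DIFF against NoRX, and 6 and 11 in DIFF against CM. Ccn2, the gene of connective tissue growth factor, was at 5.30 and 5.15 in DIFF, 4.16, 3.82 and 4.02 in CM, and 6.34, 6.39 and 6.42 in NoRX. It was 5.22-fold lower in CM than in NoRX (adjusted p = 8.49e-09), and the DIFF arrays lay between. Ltbp1, the gene of a protein that anchors latent TGF-beta in the matrix, was 8.20-fold lower in DIFF than in NoRX (adjusted p = 2.12e-09).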

How the data were processed

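The scanner files hold 1 intensity per spot of 8 one-colour Agilent mouse arrays on 1 slide, which the authors extracted with Agilent Feature Extraction 11.0.1.1, as the submitters' processing notes state. The processed intensity is on a linear scale after background subtraction, per the file headers, and the deposited series table holds the same values (largest difference 0). No scaling between arrays is recorded there. No spot among those that are not controls was saturated.

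From these intensities, log2 levels relative to each array's 75th percentile were computed without control spots and outlier spots, and spots of a probe were averaged. Of 55681 probes, 27235 matched a RefSeq accession (table of GRCm38.p6) and named 20660 genes. The array was designed on another build, so gene positions come only from RefSeq. The probe with the highest mean stood for its gene, 15 matrix genes had several probes, and probes well above background on at least 2 arrays were kept (14025 genes, 30 missing values). Differences were tested in 1 fit over all arrays with limma 3.58.1 in R 4.3.3 (lmFit, eBayes with trend, two-sided, Benjamini-Hochberg adjustment over all tested genes, threshold 0.05). The functions were tested on simulated data for CM against NoRX only, with the spread of the CM and NoRX arrays. The comparisons with DIFF were not covered by it. The number of arrays limits the precision.

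The members, the wider lists and the markers were chosen with earlier results of these data known. Named were all 47 members by class, up to 4 genes per wider list and comparison with the lowest adjusted p, and markers well above background on all arrays of a group. Some genes of the wider lists are not reported here. Same-numbered arrays of different media did not deviate together (correlations of -0.06 to 0.18), so the main fit has no replicate block. The alternatives were another background correction (normexp with offset 50, on the median spot signal because no mean signal is given in the files used here), other scalings, filters and probe rules, slide row, a replicate block, array weights, spots with uneven background left out, only the groups compared, both DIFF arrays as 1 sample, the series table, and leaving out each array. Promoter windows came from a RefSeq table that held 32 of the 47 genes. Figures were drawn with matplotlib 3.10.9.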

Additional observations from a re-analysis of the deposited data

How the results depend on the processing

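Of the matrix genes called, 18 of 26 in CM against NoRX, 14 of 22 in DIFF against NoRX and 17 of 27 in DIFF against CM were called in the same direction in every alternative that gave a value. The signs of dim genes depended on the background correction: normexp gave 0.10 for Nid2 in DIFF against NoRX, and 0.07 for Nid2, 0.28 for Col1a2, 0.26 for Eln and 0.22 for Timp3 in DIFF against CM, and the cause was not tested. The count of 5 matrix genes higher in DIFF than in NoRX became 8 with median centring, 2 with slide row as a block and 3 with array weights, and lay between 3 (without DIFF replicate 1 or without NoRX replicate 2) and 9 (without DIFF replicate 2) when single arrays were left out. The count of 5 higher in DIFF than in CM became 3 with array weights and lay between 5 and 7 without single arrays. Leaving out single arrays gave 12 to 16 higher and 11 to 12 lower in CM against NoRX, 17 lower each time in DIFF against NoRX, and 19 to 23 lower in DIFF against CM. Array weights ended the calls of Col4a3, Thbs1 and Loxl2, among others, in DIFF against CM. Over all genes in DIFF against NoRX, 1964 higher and 3947 lower became 2400 and 2132 with median centring, 914 and 1887 with slide row as a block, and 3768 and 3367 without DIFF replicate 2, and without DIFF replicate 1 there were 1754 and 6734. In DIFF against CM, 3315 higher and 4988 lower became 3936 and 3182 with median centring, and slide row as a block gave 2505 and 2291 in CM against NoRX, where 3774 and 3551 were reported. The median difference of all genes moved from -0.104 to 0.053 in DIFF against NoRX and from -0.113 to 0.057 in DIFF against CM with median centring. The replicate block gave 13 higher and 12 lower matrix genes in CM against NoRX, 5 and 17 in DIFF against NoRX, and 5 and 20 in DIFF against CM; it ended the call of Eln in CM and those of Col1a2 and Col4a6 in DIFF against CM. Signal near background limits the fibrillar collagens, Eln, Nid2 and Timp3.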

Other observations

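Among the untested matrix genes, 4 were well above background on a single array. Lox, the gene of the lysyl oxidase that cross-links collagen and elastin, was at -1.21 on NoRX replicate 2, while the 7 other arrays lay between -7.57 and -6.76. Loxl1 was at -1.08 on CM replicate 1, against -7.22 to -6.29 on the others. Mmp7, the gene of matrilysin, was at -3.71 on CM replicate 1, against -7.64 to -6.82, and Lama1 was at -3.72 on CM replicate 2, against -7.46 to -6.56. A second Lox probe was well above background only on CM replicate 2, at -4.68. Over all named genes, 1417 were well above background on 1 array alone, from 101 on DIFF replicate 2 to 284 on CM replicate 1, and 422 of these were at least 8-fold brighter there than on every other array. A level on 1 array has no replicate, and these genes entered no comparison.

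Markers outside the matrix differed between the media at the same time as the matrix genes. Of the 12 liver epithelial markers, 5 were higher and 6 lower in CM against NoRX (26.9% and 25.3% of all genes). In DIFF against NoRX 3 were higher and 8 lower (14.0% and 28.1% of all genes). In DIFF against CM 3 were higher and 3 lower (23.6% and 35.6% of all genes). Alb, the gene of the hepatocyte product albumin, was 469-fold higher in DIFF than in NoRX (adjusted p = 4.20e-10) and 9.76-fold higher in CM than in NoRX (adjusted p = 5.51e-07). Spp1, the gene of osteopontin, a matrix phosphoprotein of bile duct cells, was 22.5-fold lower in DIFF than in CM (adjusted p = 2.47e-09), and a single DIFF array was well above background there. Krt7, a keratin gene of bile duct cells, was 6.31-fold higher in DIFF than in CM (adjusted p = 3.26e-09). Krt19 differed by 0.01 in that comparison (adjusted p = 0.932), and Hnf4a differed by -0.54 between DIFF and NoRX (adjusted p = 0.000811).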
